A study of Mus musculus with 5 samples.

Results

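The visceral endoderm (VE) transport and lipoprotein genes are 36 of the 49671 genes in the count table. They were taken by symbol as secreted carriers, apolipoproteins, endocytic receptors, apical proteins and regulators of the VE, and all 36 were found. RNA was sequenced from the epiblast and VE of single embryos at about E6.75, with 2 SO+ and 3 SO− embryos. SO− embryos carried Sox2Cre+/- with Oct4 fl/-, a floxed beside a null allele. SO+ embryos were Sox2Cre-/- with Oct4 fl/+ and are labelled WT. All were on a mixed strain background and all carried a floxed allele, while Cre and the null allele were carried by SO− embryos alone and cannot be told apart from the loss of Oct4. Sox2Cre recombines mainly in the epiblast, so the VE of SO− embryos is not the tissue that Cre was used to target. The extra-embryonic ectoderm had been cut away and used for genotyping.

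The VE is a polarised epithelium that surrounds the epiblast and feeds it before a placenta has formed. It takes up maternal proteins and lipids through apical endocytic receptors, breaks them down in lysosomes, and secretes carriers and lipoprotein particles. Many of its products are later made by the liver and yolk sac, under regulators such as Hnf4a and the GATA factors.

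Total counts were 27538119 and 27047148 in SO+ embryos and lay between 1117566 and 4191498 in SO− embryos. Mean depth was thus 8.67 times higher for SO+, and it cannot be told apart from genotype. The library names also carry a different second index for each genotype, which cannot be told apart from genotype either. Levels are given as CPM, counts per 1000000 counts of the embryo, in the order SO+ 1 and 2 and SO− 1, 2 and 3 unless an embryo is named. The lowest level that 3 counts can show was at most 0.111 CPM in SO+ embryos and 2.68 CPM in SO− embryos, for counting error only. Pou5f1, which encodes Oct4, was at 920.2 and 435 CPM in SO+ against 27.8, 12.5 and 43.7 CPM in SO− embryos. RNA of Y-linked Ddx3y was present in all 5 embryos (37.0 to 52.2 CPM) and Xist lay between 1.21 and 18.6 CPM, which bears on the 4 members on chromosome X (Gpc3, Rhox5, Cited1 and S100g).

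Summed over the 36 genes, SO− embryos 1 and 2 stood above the other 3 embryos. The sum was 7835 and 8609.9 CPM in SO+ against 11394, 11681 and 8188 CPM in SO− embryos. SO− embryo 3 thus lay between the SO+ embryos, and the genotypes overlapped. The means were 8223 ± 548 CPM (SD, n = 2) for SO+ and 10421 ± 1939 CPM (SD, n = 3) for SO− embryos, a ratio of 1.27. As a share of all counts, the members held 0.784% and 0.861% in SO+ against 1.14%, 1.17% and 0.819% in SO− embryos. In whole dissected samples, a difference in the number of VE cells and a difference in this RNA per VE cell cannot be told apart. RNA of these genes from other cells of the sample enters the same sum and cannot be told apart either. The ratio was 1.40 without SO− embryo 3 and 1.19 without SO− embryo 2. It was 1.28 without Apoe, Car4 and Apoa1, the members with the most counts, and 1.25 without the members on chromosome X.

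**Figure D1:**
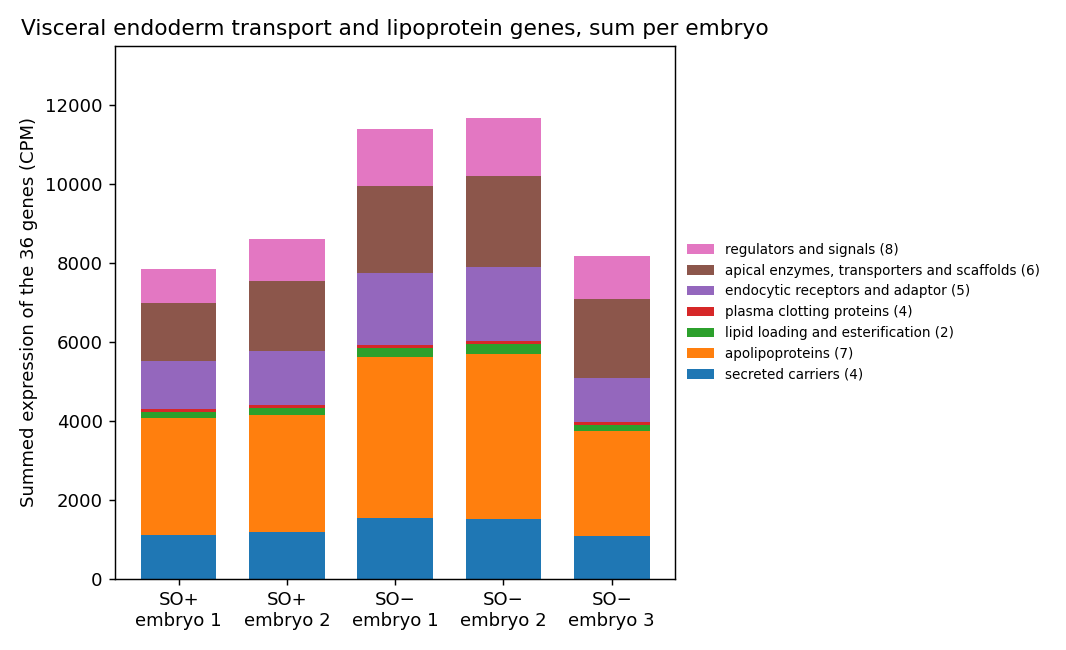
Summed expression of the 36 VE genes (CPM, y axis from 0) in each of the 5 embryos, with each bar divided by the role of the genes and the number of genes per role in brackets. SO− embryos 1 and 2 reach 11394 and 11681 CPM, while SO− embryo 3, at 8188 CPM, lies between the SO+ embryos.

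Member by member, the pattern was that of the sum. The median ratio to the SO+ mean over the 36 members was 0.907 and 1.09 in SO+ against 1.30, 1.47 and 0.918 in SO− embryos. SO− embryo 1 lay above both SO+ embryos for 28 members and SO− embryo 2 for 34. SO− embryo 3 lay above both for 7 members and below both for 17. Among the 12067 genes with enough counts to be tested, the share above both SO+ embryos was 35.8%, 39.2% and 33.6% in SO− embryos 1, 2 and 3. The share of these genes below both was not counted. The members also ranked alike within a genotype. Of the 35 members tested, SO− embryo 3 was the lowest SO− embryo for 30, where the share of all tested genes was 34.0%. SO+ embryo 2 was above SO+ embryo 1 for 29 of the 35, where the share of all tested genes was 49.4%. Genes measured in the same embryos are not independent, and these shares describe the embryos.

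**Figure D2:**
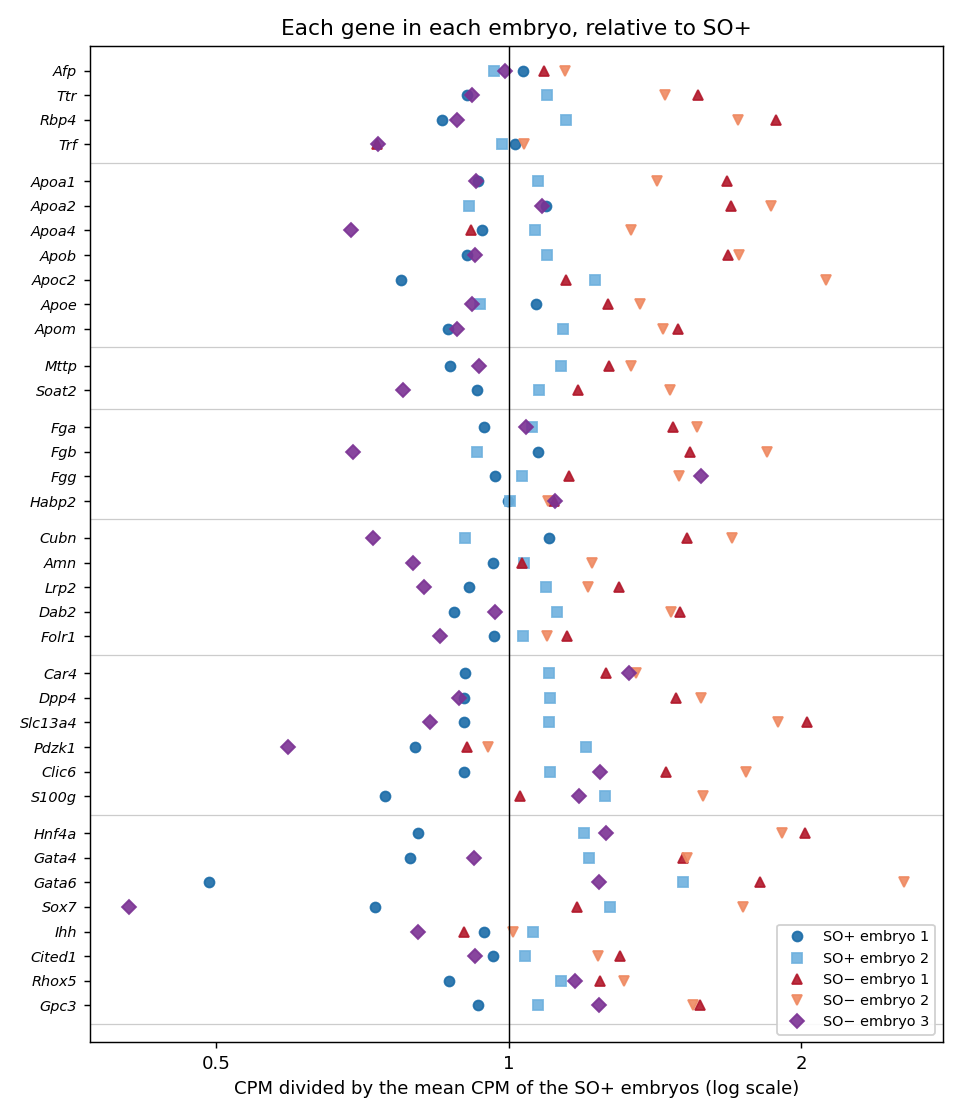
CPM of each gene in each embryo divided by the mean CPM of the SO+ embryos (x axis, log scale), with genes in rows grouped by role and 1 symbol per embryo. SO− embryos 1 and 2 lie right of 1 for most genes, SO− embryo 3 is mostly near or left of 1, and Apoc2 of SO− embryo 3, at 0 counts, is not drawn.

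Genotypes were compared with edgeR's quasi-likelihood test on all 12067 genes, with log2 fold changes as SO− over SO+ and Benjamini-Hochberg adjustment over all genes. Of the 36 members, 35 had enough counts, and 31 of these had a fold change above 0. Their median was 0.37 and their range −0.32 to 0.84, against a median of −0.0019 over all tested genes, of which 49.7% were above 0. At an adjusted p under 0.05 there was 1 member, Gpc3, or 2.86% of the members tested, beside 2.35% of all tested genes. It was higher in SO− embryos, as were 1.42% of all tested genes, and no member was called lower, beside 0.928% of all tested genes. At an unadjusted p under 0.05 there were 11 members, all higher in SO− embryos, or 31.4%, beside 13.7% of all tested genes in both directions and 7.27% for higher genes alone. The values of 7 members (Gpc3, Car4, Hnf4a, Clic6, Rhox5, Fgg and Habp2) did not overlap between genotypes, all higher in SO− embryos. That is 20.0% of the members tested, beside 13.9% of all tested genes, and no member was lower without overlap, beside 15.6% of all tested genes. Fold changes of the members thus lay mostly above 0, while the share called was near that of all genes.

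The number of members called depended on the embryos included. It was 0 without SO+ embryo 1, beside 1.42% of all genes tested in that fit, and 7 members were at an unadjusted p under 0.05. It was also 0 without SO− embryo 1 (beside 0.32%) and without SO− embryo 2 (beside 0.243%), with 4 and 5 members at an unadjusted p under 0.05. It was 8 without SO+ embryo 2 (Rbp4, Dab2, Car4, Clic6, Hnf4a, Gata4, Gata6 and Gpc3), beside 4.5% of all genes. It was 7 without SO− embryo 3 (Ttr, Rbp4, Apoa1, Apob, Cubn, Slc13a4 and Gpc3), beside 1.83%. DESeq2, the tool of the study, called Gpc3 and Car4, beside 2.54% of all genes. With limma-voom the count was 0, beside 0.754% of all genes, and 4 members were at an unadjusted p under 0.05. The share of all genes at an unadjusted p under 0.05 was counted only for edgeR with all embryos (13.7%). The member counts at an unadjusted p in the other fits therefore have no matching share.

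**Figure D3:**
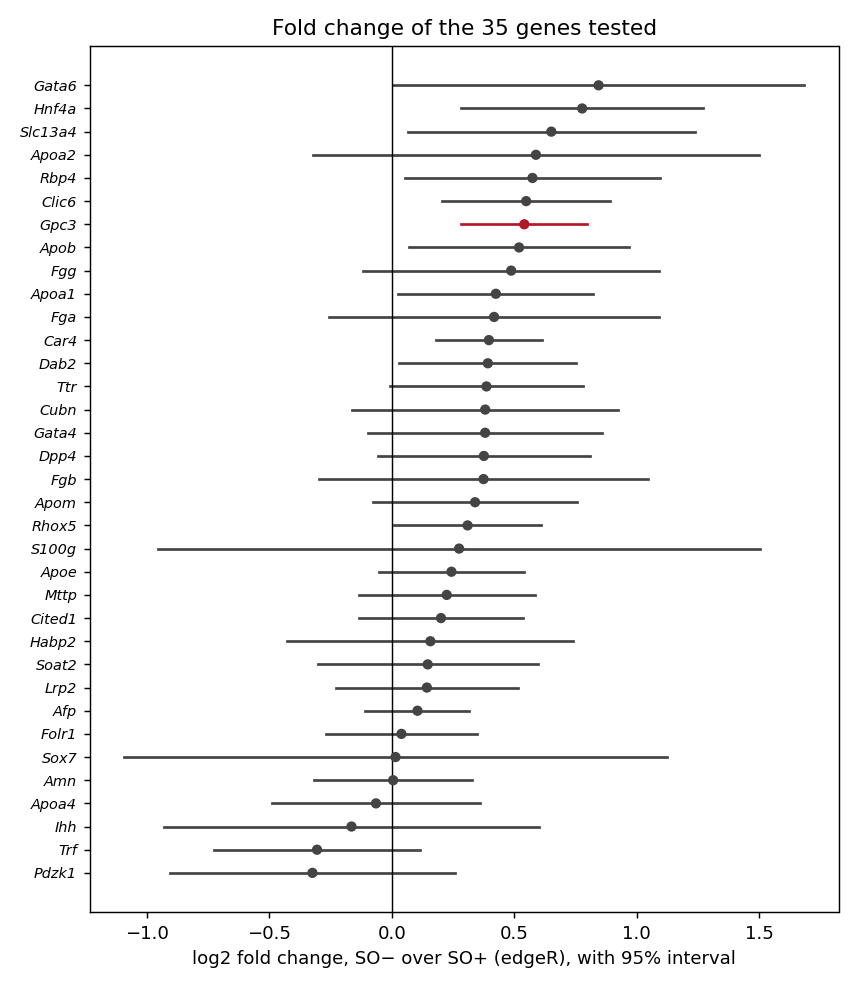
Log2 fold change of SO− over SO+ embryos (x axis, edgeR) with its 95% interval for the 35 genes tested, in order of fold change. Gpc3, in red, is the only gene with an adjusted p under 0.05, and 31 of 35 points lie right of 0.

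Gpc3 (glypican 3), a heparan sulphate proteoglycan of the cell surface, was the only member called by edgeR with all embryos included. It is ENSMUSG00000055653, on the minus strand of chromosome X of GRCm38 from 52272426 to 52613950. Its level was 542 and 625 CPM in SO+ against 918, 902 and 722 CPM in SO− embryos. Each SO− embryo lay above both SO+ embryos, with SO− embryo 3 the nearest to them. The log2 fold change was 0.54 ± 0.12 (standard error), with a 95% interval of 0.28 to 0.80 and an adjusted p of 0.0313 from edgeR. Gpc3 fell short of the threshold without SO− embryo 1 (0.46, adjusted p = 0.315) or SO− embryo 2 (0.50, adjusted p = 0.265), and with limma-voom (adjusted p = 0.100). Without SO+ embryo 1, which leaves a single SO+ embryo, its log2 fold change was 0.43.

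Car4 encodes a carbonic anhydrase anchored to the outer face of the membrane. It was at 1105 and 1349.7 CPM in SO+ against 1543, 1658 and 1630.0 CPM in SO− embryos. The genotypes did not overlap, and Car4 was as high in SO− embryo 3 as in the other SO− embryos. It made up 19.9% of the member sum in that embryo and between 13.5% and 15.7% in the other 4. The log2 fold change was 0.40 ± 0.10 (standard error), with an adjusted p of 0.0622 from edgeR and of 0.0177 from DESeq2. Among the other apical genes, Slc13a4, a sodium and sulphate cotransporter, was at 162 and 198 CPM in SO+ against 365, 341 and 149 CPM in SO− embryos. SO− embryo 3 was below both SO+ embryos for this gene while SO− embryos 1 and 2 were well above them. Clic6, of the chloride intracellular channel family, did not overlap between genotypes (0.55, adjusted p = 0.105 from edgeR). Dpp4, a dipeptidyl peptidase, had a log2 fold change of 0.38 (adjusted p = 0.449 from edgeR). Pdzk1, a scaffold of apical transporters, had the lowest log2 fold change of the members at −0.32 (95% interval −0.91 to 0.26). S100g, a calcium-binding protein, had between 5 and 96 counts per embryo and a log2 fold change of 0.27 with a standard error of 0.57.

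Among secreted carriers, Afp, Ttr and Rbp4 were above 0 and Trf was below. Afp (alpha-fetoprotein) was at 607 and 567 CPM in SO+ against 639, 670.2 and 583 CPM in SO− embryos. Its log2 fold change was 0.10 (95% interval −0.11 to 0.32). Ttr, which carries thyroxine and binds the retinol carrier, was at 257 and 310.3 CPM in SO+ against 444, 409.8 and 259.6 CPM in SO− embryos. Rbp4, the retinol carrier, was at 197 and 264 CPM in SO+ against 434, 396 and 204 CPM in SO− embryos. For both partners, SO− embryos 1 and 2 were above the SO+ embryos and SO− embryo 3 lay between them. Their log2 fold changes were 0.39 (adjusted p = 0.377 from edgeR) and 0.57 (adjusted p = 0.301). Trf, the iron carrier transferrin, had a log2 fold change of −0.31 (95% interval −0.73 to 0.12).

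The apolipoproteins held 37.8% and 34.3% of the member sum in SO+ against 35.8%, 35.7% and 32.6% in SO− embryos. Apoe, a ligand of the LDL receptor family, was at 1802 and 1578 CPM in SO+ against 2139, 2305 and 1548 CPM in SO− embryos. Apoa1, the main protein of high-density lipoprotein, was at 587 and 678 CPM in SO+ against 1059.6, 897 and 585 CPM in SO− embryos. For both, SO− embryo 3 was the lowest of all 5 embryos and close to the lower SO+ embryo. Apob, the scaffold of very-low-density lipoprotein, was at 230.4 and 279 CPM in SO+ against 427, 438 and 235 CPM in SO− embryos. Log2 fold changes were 0.24 for Apoe (adjusted p = 0.481 from edgeR), 0.42 for Apoa1 (adjusted p = 0.319) and 0.52 for Apob (adjusted p = 0.268). Apom, which carries sphingosine-1-phosphate, had a log2 fold change of 0.34 (adjusted p = 0.487 from edgeR). It lies 374 kb from Pou5f1 on chromosome 17, and the part of alleles carried along with the targeted locus was not tested.

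Apoa4, a lipoprotein component, lies in the same cluster as Apoa1 on chromosome 9, at 46240696 to 46243459 beside 46228580 to 46230466. Apoa4 was at 187 and 211 CPM in SO+ against 182, 266 and 137 CPM in SO− embryos, so that SO− embryo 1, the highest for Apoa1, was below both SO+ embryos. The log2 fold change was −0.06 (95% interval −0.49 to 0.36), and the difference between the neighbours was not tested. Apoa2, another protein of high-density lipoprotein, had 11 to 159 counts per embryo and a log2 fold change of 0.59 (adjusted p = 0.617 from edgeR). Apoc2, the cofactor of lipoprotein lipase, was near the limit of detection, with 9 and 14 counts in SO+ against 2, 1 and 0 in SO− embryos, and was not tested. Mttp, which loads lipid onto Apob, had a log2 fold change of 0.22 (adjusted p = 0.637 from edgeR). For Soat2, which esterifies cholesterol, it was 0.15 (adjusted p = 0.852).

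The endocytic receptors and their adaptor all had log2 fold changes above 0, from 0.01 to 0.39, with no call. Cubn (cubilin), which binds vitamin B12 with its carrier and several plasma proteins, was at 306 and 251 CPM in SO+ against 424, 472 and 202 CPM in SO− embryos. Amn (amnionless), which carries cubilin to the membrane, was at 173 and 186 CPM in SO+ against 186, 219 and 143 CPM in SO− embryos. SO− embryo 3 was the lowest of the 5 embryos for both. Log2 fold changes were 0.38 for Cubn (95% interval −0.16 to 0.92) and 0.01 for Amn (95% interval −0.32 to 0.33), with overlapping intervals. Lrp2 (megalin), the large partner receptor of cubilin, had a log2 fold change of 0.14 (95% interval −0.23 to 0.51). Folr1, a folate receptor, had one of 0.04 (95% interval −0.27 to 0.35). Dab2, the adaptor that links such receptors to clathrin, was at 504 and 643 CPM in SO+ against 860.3, 843 and 554 CPM in SO− embryos. SO− embryo 3 lay between the SO+ embryos, and the log2 fold change was 0.39 (adjusted p = 0.311 from edgeR).

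Plasma clotting proteins summed to 61.4 and 59.7 CPM in SO+ against 82.2, 94.8 and 61.6 CPM in SO− embryos. The genes of the fibrinogen chains Fgg, Fga and Fgb lie side by side on chromosome 3 between 83007724 and 83049863. In SO− embryo 3, Fgg was the highest of the 5 embryos (18.8 CPM) and Fgb the lowest (17.4 CPM), from 79 and 73 counts. Fga was at 10.7 CPM there, between the SO+ values. Log2 fold changes of the chains were 0.49, 0.42 and 0.37 in that order, with no call. Habp2, a plasma protease that binds hyaluronan, was at 13.0 and 13.1 CPM in SO+ and between 14.3 and 14.6 CPM in SO− embryos. It did not overlap, but its 95% interval was −0.43 to 0.74 and its SO− values rest on 16 to 61 counts.

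Among regulators, Gata6 and Hnf4a had the largest log2 fold changes of all members with all embryos included, but without SO+ embryo 1 Gata6 was at 0.23 and Apoa2 (0.71) was the largest. Hnf4a, a nuclear receptor that activates many genes of VE and liver, was at 29.8 and 44.1 CPM in SO+ against 74.5, 70.7 and 46.5 CPM in SO− embryos. The genotypes did not overlap, though SO− embryo 3 was close to SO+ embryo 2. The log2 fold change was 0.78 ± 0.23 (standard error), with a 95% interval of 0.28 to 1.27 and an adjusted p of 0.113 from edgeR. Gata6, needed early for extra-embryonic endoderm, was at 15.5 and 47.7 CPM in SO+ against 57.3, 80.5 and 39.1 CPM in SO− embryos. The SO+ embryos themselves differed widely, and the log2 fold change was 0.84 (adjusted p = 0.361 from edgeR). It was 0.23 without SO+ embryo 1 and 1.87 without SO+ embryo 2, and each of these fits leaves a single SO+ embryo. Gata4, a related factor, was at 67.3 and 103 CPM in SO+ against 128, 129.7 and 78.3 CPM in SO− embryos. Sox7, an SRY-related factor of extra-embryonic endoderm, was at 5.99 and 10.5 CPM in SO+ against 9.67, 14.3 and 3.34 CPM in SO− embryos. For both, SO− embryo 2 was the highest of the 5 embryos and the genotypes overlapped. Log2 fold changes were 0.38 for Gata4 (adjusted p = 0.499 from edgeR) and 0.02 for Sox7 (adjusted p = 0.997). The signalling ligand Ihh had a log2 fold change of −0.16 (adjusted p = 0.915 from edgeR), and the coactivator Cited1 one of 0.20 (adjusted p = 0.652). Rhox5, a homeobox gene of extra-embryonic lineages, lay between 129.8 and 146 CPM in SO− embryos against 96.4 and 125.7 CPM in SO+ embryos (0.31, adjusted p = 0.346 from edgeR).

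Promoter windows from RefSeq (GRCm38.p6, 250 bases before to 50 after each start) were given for 28 of the 36 members, in 37 windows. They were searched on both strands for letters bound by factors of VE and liver. The letters GTTAAT, an arm of the HNF1 site, were present in 21.6% of member windows and 7.1% of all 32851 windows. The full palindromic HNF1 site, which contains that arm, was in 0 member windows and 0.00913% of all windows. The GATA letters AGATAA were in 8.11% of member and 11.2% of all windows, the TATA box letters TATAAA in 27% and 13.6%, and the HNF4 letters CAAAGTCCA in 2.7% and 0.475%. The 120 bases before the start are shown for Afp and Fgb, as secreted members with the HNF1 arm. They are also shown for Hnf4a, a regulator without overlap, and for Gpc3, the only member called by edgeR. Capitals mark GTTAAT or, where the arm is on the other strand, ATTAAC. In the order shown, the stretches lie at chr5:90490594-90490713 (plus strand), chr3:83049864-83049983 (minus strand), chr2:163547035-163547154 (plus strand) and chrX:52613975-52614094 (minus strand).
Afp: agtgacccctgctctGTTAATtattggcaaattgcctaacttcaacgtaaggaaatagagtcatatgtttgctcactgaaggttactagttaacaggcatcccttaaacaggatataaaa
Fgb: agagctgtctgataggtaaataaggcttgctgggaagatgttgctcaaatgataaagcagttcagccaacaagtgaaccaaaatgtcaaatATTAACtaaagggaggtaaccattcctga
Hnf4a: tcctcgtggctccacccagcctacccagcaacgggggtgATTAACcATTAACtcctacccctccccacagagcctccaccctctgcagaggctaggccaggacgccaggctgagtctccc
Gpc3: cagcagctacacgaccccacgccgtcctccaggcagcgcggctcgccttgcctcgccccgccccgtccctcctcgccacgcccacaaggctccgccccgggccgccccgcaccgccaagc
The Hnf4a stretch holds 2 copies in a row, before a start inside the gene and in an intron of its longer transcripts, and the Gpc3 stretch holds 0. A match describes letters and not binding. Afp and Fgb, which carry the arm, were not called.

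Per kilobase of exon, the order of the members was not that of their counts. As FPKM, the mean CPM divided by exon length, SO+ embryos were led by Apoe (790.4 FPKM), Car4 (624 FPKM) and Apoa1 (512 FPKM), followed by Ttr (239 FPKM) and Gpc3 (217 FPKM). In SO− embryos the same 3 genes led at 934, 819 and 686 FPKM, followed by Gpc3 (315 FPKM) and Ttr (313 FPKM). Apob and Cubn, which were among the 10 members with the most counts, have exon lengths of 13934 and 14935 bases and were at 18.3 and 18.6 FPKM in SO+ against 26.3 and 24.5 FPKM in SO− embryos. Hnf4a was at 7.66 FPKM in SO+ and 13.2 FPKM in SO− embryos, and Apoc2 was the lowest member in both genotypes. These are exon lengths of the annotation and not of the transcripts in use.

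Exon bases of 11 members are shared with another gene, and reads there may have been divided or dropped in counting. The largest shares on the same strand were those of Apoc2 (79.5% with Gm44805) and Trf (63.5% with Gm20425). Those partners had 0 and at most 3 counts per embryo. On the opposite strand the largest were those of Pdzk1 (37.5% with Gpr89) and Apoa4 (34.9% with Gm47528). The levels of these 4 members are uncertain to that extent, and those of Trf, Pdzk1 and Apoa4 were, with Ihh, the 4 with a log2 fold change below 0. The part of shared reads in those values was not tested.

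To describe the members relative to the VE genes as a whole, the fit was repeated with each library scaled to its summed count of the 36 members. The median log2 fold change of the members was then 0.0045, near 0 by construction, with 19 members above 0 and 16 below, and the median of all tested genes was −0.31. With edgeR 0 members were called, beside 3.22% of all genes in that fit, and 1 member was at an unadjusted p under 0.05 (Trf). The largest relative values were those of Gata6 (0.55, 95% interval −0.05 to 1.14) and Hnf4a (0.45, 95% interval −0.13 to 1.03). The lowest were those of Pdzk1 (−0.64, 95% interval −1.29 to 0.02) and Trf (−0.61, 95% interval −1.20 to −0.01). Gpc3 was at 0.21 (adjusted p = 0.716 from edgeR) and was not called on this scale. The sum used for scaling includes Gpc3 and every other member. The standard error of Gpc3 was 0.29 here, beside 0.12 in the main fit. The 0 calls on this scale thus do not show whether single members changed.

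Other genes of the same roles were counted from lists outside the members. Of 30 further VE genes (secreted, surface and regulatory), 25 were tested, with 19 log2 fold changes above 0 and 6 below. With edgeR 2 were called, both higher in SO− embryos, beside 2.35% of all tested genes called and 1.42% called higher. Spink1, a trypsin inhibitor, was at 258 and 241 CPM in SO+ against 374, 414 and 371 CPM in SO− embryos, and rose by 0.63 ± 0.10 on the log2 scale (standard error, adjusted p = 0.00580 from edgeR). It was high in SO− embryo 3 too, as Car4 was. Sox17, an endoderm factor that VE and definitive endoderm share, rose by 1.33 (adjusted p = 0.0365 from edgeR). Neither passed without SO− embryo 1 (adjusted p = 0.0868 and 0.322) or without SO− embryo 2 (adjusted p = 0.0903 and 0.323), and Sox17 did not pass with limma-voom (adjusted p = 0.186). The log2 fold change farthest from 0 on this list was that of Gc, at −3.25, and it was not called (adjusted p = 0.0980 from edgeR). Gc had 72 and 104 counts in SO+ against 2, 1 and 0 counts in SO− embryos, near the limit of detection there. The adult liver product Alb had 0 counts in every embryo.

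Of 39 genes of lipoprotein and cholesterol handling, 26 were tested, with 12 above 0, 14 below and a median of −0.01. Abcg1, a sterol exporter, was called lower in SO− embryos. It was at 20.3 ± 7.36 CPM (SD, n = 2) in SO+ against 5.25 ± 1.45 CPM (SD, n = 3) in SO− embryos, a log2 fold change of −1.90 (adjusted p = 0.0127 from edgeR). Its SO− values rest on 5 to 29 counts per embryo. Leaving out SO− embryo 1 or SO− embryo 2 ended the call (adjusted p between 0.100 and 0.173 from edgeR), as did limma-voom (adjusted p = 0.302). Of 34 genes of endocytic uptake and lysosomes, all were tested and 28 were above 0, with a median of 0.12. With edgeR 0 were called and 6 of the 34 were at an unadjusted p under 0.05, beside 2.35% and 13.7% of all tested genes. DESeq2 called 1 and limma-voom 0, beside 2.54% and 0.754%. The nearest to the threshold were Slc9a3r1, a scaffold of apical membrane proteins (0.38, adjusted p = 0.0778 from edgeR), and Myo6, a motor of endocytic vesicles (0.54, adjusted p = 0.0915).

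Markers of other tissues were summed beside the VE genes. Their counts stand beside 2.35% of all tested genes called by edgeR and 13.7% at an unadjusted p under 0.05. Anterior VE markers (10 tested, 9 above 0) summed to 607 and 731 CPM in SO+ against 781, 848 and 759.6 CPM in SO− embryos. Cer1, a secreted inhibitor of Nodal and the only call among them, rose by 0.69 (adjusted p = 0.0126 from edgeR). Its log2 fold change was 0.61 without SO− embryo 1 and 0.69 without SO− embryo 2. Cer1 was not called in those fits (adjusted p = 0.174 and 0.137 from edgeR). Without SO+ embryo 1, which leaves a single SO+ embryo, its log2 fold change was 0.64. Parietal endoderm markers lay between 579.5 and 733 CPM, with 0 called by edgeR, DESeq2 or limma-voom and 2 of 9 at an unadjusted p under 0.05. Thbd, a parietal endoderm marker that was not tested, was at 0 counts in 3 of 5 embryos. Extra-embryonic ectoderm markers lay between 266 and 345 CPM, with 0 called by each tool and 1 of 7 at an unadjusted p under 0.05. Eomes, which VE and epiblast also express, made up most of that sum, and Elf5 was at most 2.62 CPM. Maternal decidua and blood markers summed to at most 13.5 CPM, with 8 of 13 genes at 0 in every embryo. Definitive endoderm markers summed to 378 and 327 CPM in SO+ against 1000.1, 1002 and 776 CPM in SO− embryos, so that SO− embryo 3 was above both SO+ embryos. All 7 genes tested were above 0 and 3 were called higher. The list is not separate from the VE lists, as Sox17, Foxa2, Cer1, Hhex and Gsc are in both. The gene with the most counts on this list was Trh, which encodes thyrotropin-releasing hormone and rose by 1.93 (adjusted p = 0.00251 from edgeR). Trh was at 216 and 88.0 CPM in SO+ against 649, 602 and 486 CPM in SO− embryos. Trh thus made up most of the list sum in each SO− embryo. Its log2 fold change was 1.82 without SO− embryo 1 and 1.91 without SO− embryo 2. Trh was not called in those fits (adjusted p = 0.0762 and 0.137 from edgeR).

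As a sum, epiblast markers were lower in SO− embryos, with 8 genes below 0 and 2 above (Fgf5 at 0.38 and Epcam at 0.04). The 5 genes not called summed to 1389 and 1439 CPM in SO+ against 1313, 1205 and 1442 CPM in SO− embryos, which overlap. The 10 genes summed to 7316 and 5932 CPM in SO+ against 3292, 2809 and 4093 CPM in SO− embryos. With edgeR 5 were called, all lower (Pou5f1, L1td1, Utf1, Slc7a3 and Dnmt3b), beside 0.928% of all tested genes called lower. Within each genotype, the embryos with the higher VE sum had the lower sum of all 10 markers. For the 5 markers not called, this order held in SO− but not in SO+ embryos. Divided by the sum of all 10 markers, the VE sum was 1.07 and 1.45 in SO+ against 3.46, 4.16 and 2.00 in SO− embryos. Each SO− embryo was above both SO+ embryos on this scale, which includes Pou5f1 itself and the other markers that fell. Divided by the 5 markers not called, it was 5.64 and 5.98 in SO+ against 8.68, 9.69 and 5.68 in SO− embryos. SO− embryo 3 then lay between the SO+ embryos. Those 5 markers were picked by their result in these data. The part of tissue content in the fold changes of single VE genes was not tested.

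**Figure D4:**
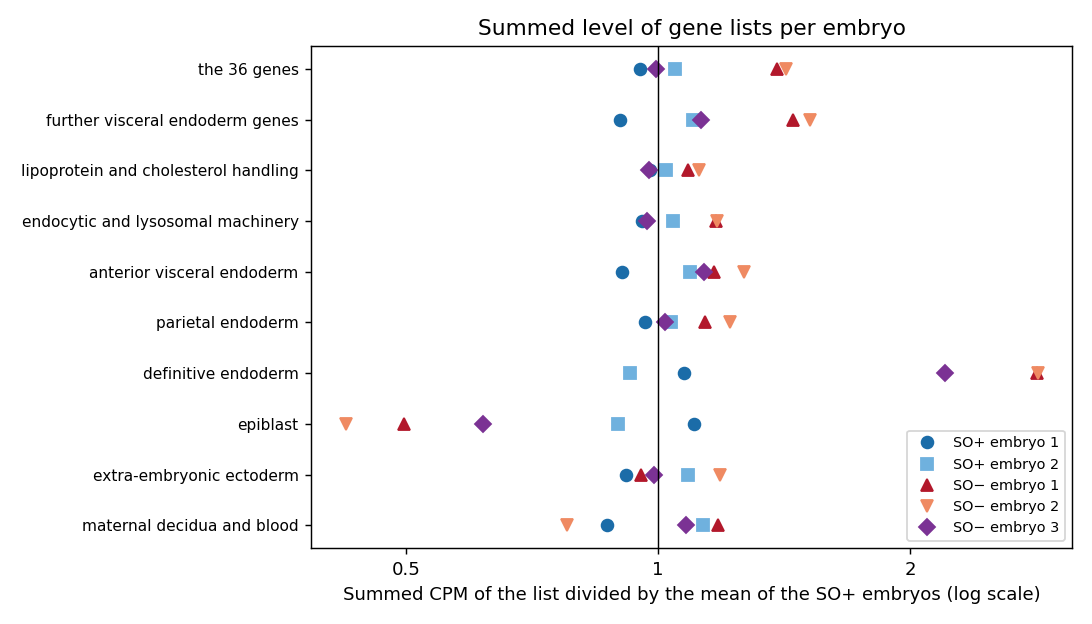
Summed CPM of each gene list divided by the mean of the SO+ embryos (x axis, log scale), with lists in rows and 1 symbol per embryo. For the VE genes SO− embryos 1 and 2 lie right of the SO+ embryos and SO− embryo 3 between them, while the epiblast list lies left of the SO+ embryos in all 3.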

How the data were processed

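Per the labels and methods, SmartSeq2 reads were trimmed with cutadapt, mapped to GRCm38/mm10 by STAR and assigned to Ensembl 87 genes by HTSeq, and the authors deposited raw counts without normalization. Strand setting is not given in the sources used here. Without molecular identifiers, detection limits cover counting error only. The counts were analysed in R 4.3.3 with edgeR 4.0.16 (filterByExpr, TMM, quasi-likelihood test on genotype alone, Benjamini-Hochberg threshold 0.05), tested on simulated data. Standard errors follow from F and the fold change. DESeq2 1.42.0, limma-voom (limma 3.58.1), other scalings and filters, thinning of SO+ libraries (median of 10 draws), a replicate block and each embryo left out were alternatives. Exon lengths and sharing came from GENCODE M21 (GRCm38), which matched 99.5% of genes. Whether embryos shared a litter is not stated, so p-values measure the spread between these embryos.

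Values in every embryo are given for called members, the 10 with the highest mean CPM and Hnf4a, Gata4, Gata6 and Sox7. From other lists, called genes are named, at most 5 each, and 1 result is not reported here. Slc13a4, Apoa4, Amn, Rhox5, Habp2 and the fibrinogen genes among the members, and Slc9a3r1, Myo6, Gc, Eomes, Elf5, Thbd and Alb, were given values or named after their values were seen. The members and lists were chosen with earlier results of these data known.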

Additional observations from a re-analysis of the deposited data

How the results depend on the processing

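The ratio of summed VE genes stayed above 1 under every alternative run, from 1.19 to 1.40 with each embryo left out. edgeR called 1 member, as did each other scaling of all genes and each other filter. The number was 1.5 as the median of thinnings, 2 with DESeq2, 0 with limma-voom, 0 with libraries scaled to the members and 0 to 8 with each embryo left out. The median log2 fold change of members was 0.0045 with libraries scaled to the members, by that scaling's construction, which also bears on the 0 calls there. On the other lists 11 genes were called, 7 with limma-voom and 3 to 23 with each embryo left out. Same-numbered embryos of the genotypes are different animals, and their deviations correlated at 0.0154 and 0.112, so the replicate block joins only numbers. With the block, 16 members, 36 genes of the other lists and 7.7% of all genes were called, and Apoa4 was at 0.14.

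Some log2 fold changes turned in sign. Scaled to the members, those were −0.22 for Afp, −0.11 for Apoe, −0.0043 for Apom, −0.099 for Mttp, −0.18 for Soat2, −0.14 for Habp2, −0.0017 for Cubn, −0.32 for Amn, −0.20 for Lrp2, −0.29 for Folr1, −0.33 for Sox7 and −0.13 for Cited1. Amn was at −0.066 with limma-voom, −0.030 without a filter, −0.020 with thinning and −0.012 with upper-quartile scaling. Sox7 was at −0.27, −0.025 and −0.035 under the first 3 of these. With each embryo left out, the range was −0.31 to 0.13 for Apoa4, −0.026 to 0.37 for Soat2, −0.12 to 0.15 for Amn, −0.025 to 0.32 for Lrp2, −0.076 to 0.16 for Folr1, −0.062 to 0.70 for S100g and −0.36 to 0.48 for Sox7. Apart from the scaling to the members, the cause was not tested. Depth limits S100g, Apoa2, Apoc2, Ihh and Sox7 most, with at most 40 counts in any SO− embryo.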
